A study of Mus musculus with 3 samples.

Results

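Small proliferative adipocytes (SPA) were compared with stromal vascular cells (SVC) after both had been cultured, with 1 microarray for each. Epididymal fat of male C57/BL mice aged 20 weeks was digested with collagenase to give the cells. SVC were the lower phase of a first spin at 9 g for 1 s. SPA were the sediment that a second spin, at 226 g for 3 min, gave from the floating cells. Both were grown in DMEM and harvested at 90% confluency, so culture medium and harvest point are shared. SPA are thus defined by how they float and sink, not by a marker, and how many mice gave the RNA of an array is not given in the sources used here. The remaining array held mature adipocytes (MA), the cells that still floated after the second spin, for which no culture is described and whose label carries another date. MA values are printed for orientation, and cell type, culture and date cannot be told apart there. The 2 arrays compared are therefore 2 of 3, and the question they address is which genes, other than those the paper lists as higher in SPA, separate cultured SPA from cultured SVC.

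Epididymal fat is a mixed tissue. Mesothelial cells, an epithelium-like layer with keratins, uroplakins and mesothelin, cover the fat pad. Resident macrophages clear debris and make complement C1q, fibroblast-like progenitors lay down collagen and can take on a contractile form in culture, and adipocytes store triglyceride in droplets coated by perilipins and CIDE proteins. A stromal vascular fraction can hold all of these except floating adipocytes, and what a culture dish keeps depends on which of them attach and divide.

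The level of a gene is given here as the log2 of its signal minus the log2 of the 75th percentile of the array, and a log2 ratio is the level in SPA minus that in SVC. A gene that was not well above background on the dimmer array has only a bound, which is written as at least N-fold. Of 37325 genes on the arrays, 22692 had a fold, 20823 on values from both arrays and 1869 on a bound. The median log2 ratio over these 22692 genes was 0.07, and 92.8% of them lay within 2-fold. Repeated spots of one probe gave an SD of the log2 ratio of 0.056, which covers the error within the arrays and not that between mice or cultures. With 1 array for each condition no difference has a replicate check, and no test was run. Of the spots that were not controls, 58.6% were well above background in SVC and 61.4% in SPA, and 3.21% and 5.01% had a local background that the scanner software marked as outlying. As a check of the label, Adipoq, the adipocyte hormone adiponectin, could not be told from background in SVC, while it reached 1.56 in SPA and 8.44 in MA. Lyz2, a macrophage gene, was as bright in SPA as in SVC.

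At least 5-fold lower in SPA were 80 genes (0.353% of those with a fold), 66 of them measured on both arrays. At least 5-fold higher were 73 genes (0.322%), 51 of them measured on both arrays. Of the 73 higher genes, 18 are in the paper's list of genes higher in SPA, which was chosen on these arrays, and 55 are not. Outside the paper's list means outside that list here, and the paper names some of these genes elsewhere. At 2-fold, 740 genes were lower (3.26%) and 888 higher (3.91%). These shares are the background for the gene lists described here, which were chosen with earlier results of these data known. After normexp, a background correction that pulls dim probes towards no difference, 15 genes were lower and 30 higher by at least 5-fold, and all of these are among the 80 and the 73. With no filter on dim probes the counts were 159 and 287. The bounds depend on the background correction. Of the 10 genes with the largest bounds outside the paper's list in each direction, 0 lower and 2 higher stayed at least 5-fold with normexp. All of them stayed at least 2-fold. At 5-fold, 14 of the 80 lower genes passed in each of the 10 other settings tried, among them Ccl12, Vat1l, Cnn1, C1qa, Mogat2, Slc1a6, Aldh1a2, Cemip, C1qc, Msln, Upk1b, Marco and Ankrd1. Just inside the limit lay Dlk1, Krt7 and Rasl11a, at 5.03-fold, 5.07-fold and 5.08-fold lower, and just outside lay Plac8 and Klk8, at 4.96-fold and 4.91-fold lower.

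**Figure D1:**
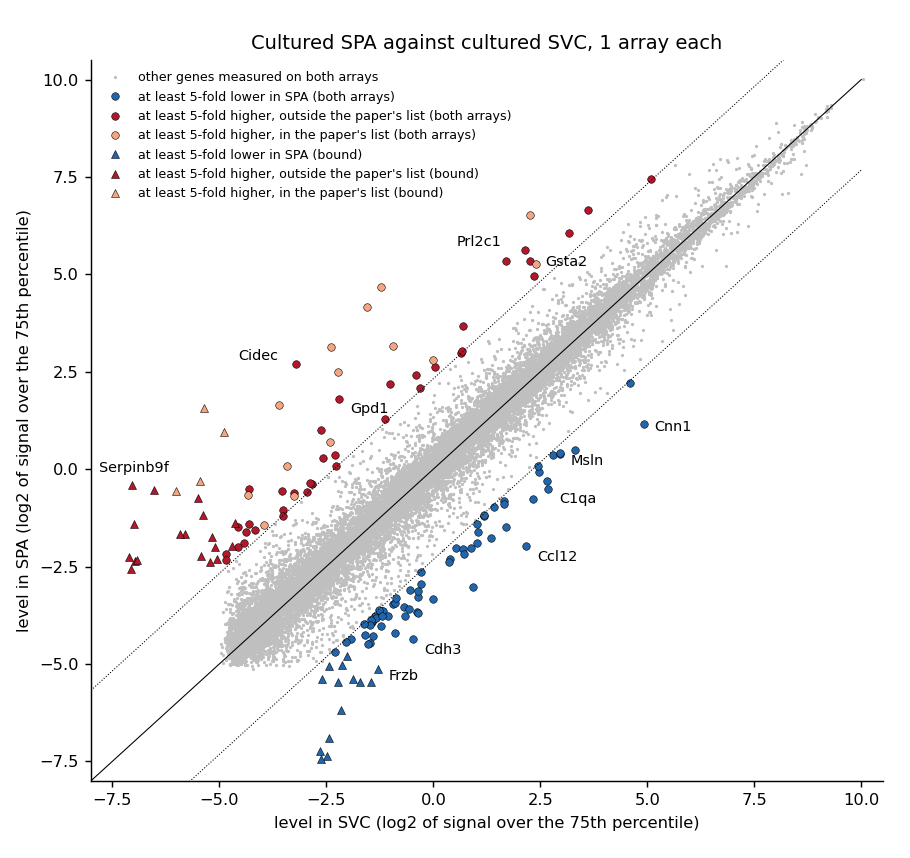
Level of each gene in SVC (horizontal) and in SPA (vertical), as log2 of signal over the array's 75th percentile, 1 array each. Solid line, equal levels. Dotted lines, 5-fold. Grey dots are other genes measured on both arrays, circles and triangles are genes called on both arrays and on a bound. The 80 lower genes lie under the lower dotted line, with Cnn1 at 4.92 in SVC and 1.16 in SPA, and the 73 higher genes lie above the upper one.

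Mesothelial genes formed the list with the lowest median. Of 15 mesothelial markers with a fold, 12 were at least 2-fold lower in SPA and 8 at least 5-fold lower, with a median log2 ratio of -2.34 against 0.07 for all genes. None of the 15 rested on a bound. In these bulk cultures, fewer cells of a type and less RNA per cell cannot be told apart. The summed signal of the list was 38829 in SVC, 12544 in SPA and 15753 in MA. Summed signals, here and for other lists, cover all members on the arrays, with or without a fold. They are not scaled between arrays, whose 75th percentiles were 430 in SVC, 439 in SPA and 366 in MA. Msln, which encodes the surface protein mesothelin, had a level of 2.96 in SVC, 0.38 in SPA and 3.36 in MA, and was 5.98-fold lower in SPA. Its probe lies on chromosome 17 from 25885569 to 25885628 in the mm9 build, which is the build of all probe positions given here. The uroplakin genes Upk3b and Upk1b, which encode membrane plaque proteins, had log2 ratios of -2.91 and -2.56. For Upk3b the levels were 0.72 in SVC, -2.19 in SPA and 1.03 in MA, so SPA was below both other arrays.

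The keratins of simple epithelia were lower with them. Krt19 and Krt7 had log2 ratios of -2.38 and -2.34, and Krt8 and Krt18, which pair into one filament, -2.11 and -2.01. Krt18 had a level of 4.82 in SVC and 2.82 in SPA. Lrrn4, a leucine-rich repeat membrane protein, and Bnc1, the zinc finger protein basonuclin, were 8.14-fold and 7.67-fold lower in SPA. Gpm6a, a membrane glycoprotein, was at -1.59 in SVC and -4.25 in SPA, and Nkain4 had a log2 ratio of -1.80. Members of the list were not equally low. Wt1, the transcription factor of the mesothelium and of visceral fat progenitors, had a log2 ratio of -0.90 and Ezr, which links membrane to actin, of -1.07. Rspo1, a Wnt agonist, and Cldn15, a tight junction protein, were at 0.33 and 0.36, and Calb2 was not well above background on either array. With the normexp correction 12 members were again at least 2-fold lower, and the range of the list's median over all settings was -2.39 to -1.85.

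Some genes of epithelial junctions and polarity were lower on the same array. Of 21 cadherin, claudin and polarity genes with a fold, 8 were at least 2-fold lower and 4 at least 5-fold lower, and 2 were at least 2-fold higher. Cdh3, or P-cadherin, was 14.9-fold lower in SPA, with -0.47 in SVC and -4.36 in SPA, and its probe lies on chromosome 8 from 109079933 to 109079992. Crb2, a Crumbs polarity protein, was 9.97-fold lower, and Pard6b, of the PAR complex, and Cldn1, of tight junctions, both had a log2 ratio of -2.50. Cldn3, Cldn4 and Cdh1 (E-cadherin) had log2 ratios of -1.53, -1.14 and -1.14. Cdh2 and Cdh11, the cadherins of mesenchymal cells, were at -0.55 and -0.29. The endothelial Cdh5 and Cdh13, which binds adiponectin, were at 1.08 and 1.29. With normexp 6 members were at least 2-fold lower and 0 at least 2-fold higher. The part of the mesothelial markers in these values was not tested.

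Connexins, the channel proteins of gap junctions, were listed after their values had been seen. Of 12 with a fold, 4 were at least 2-fold lower. Gjb5 had a log2 ratio of -2.91, and the local background of its spot in SPA was marked as outlying. Gja1, the widespread connexin 43, had a log2 ratio of -1.11.

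Enzymes and receptors of retinoic acid, the vitamin A product that acts through nuclear receptors, were also listed after their values had been seen. Of 19 with a fold, 5 were at least 2-fold lower and 3 at least 2-fold higher. Aldh1a2, which makes retinoic acid and is typical of mesothelium, was 7.78-fold lower, with 2.65 in SVC, -0.31 in SPA and -0.23 in MA. Rarb, a receptor whose own gene responds to retinoic acid, was at -2.71 on the log2 scale at its brightest probe and at -1.63 at another. The binding protein Crabp1 had a log2 ratio of -2.44, and Cyp26b1, which degrades retinoic acid, of -1.09. Adh7, which oxidises retinol, was on the other side at 3.08, and Aldh1a1 was at -0.84.

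Macrophage genes differed among themselves. Of 26 general macrophage markers with a fold, 6 were at least 2-fold lower and 2 at least 2-fold higher, and their median log2 ratio was 0.07, the same as for all genes. Their summed signal was 416037 in SVC and 514480 in SPA. Lyz2, the macrophage lysozyme, had a level of 8.74 in SVC and 8.81 in SPA, Csf1r, the receptor of the macrophage growth factor, 5.11 and 5.37, and Adgre1, or F4/80, 3.80 and 3.86. The 3 chains of complement C1q were far lower in SPA. C1qa had levels of 2.68 in SVC, -0.50 in SPA and 2.99 in MA. C1qb and C1qc had log2 ratios of -2.48 and -2.81, and the 3 probes lie within chromosome 4 from 136436578 to 136452468. All 3 were brighter on the MA array than in SVC.

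A list of genes typical of tissue-resident macrophages, drawn up after the values had been seen, had 9 of 18 genes at least 2-fold lower and 7 at least 5-fold lower, with a median log2 ratio of -1.02 that ranged from -1.37 to -0.52 over the settings. Its summed signal was 31372 in SVC and 29553 in SPA. Ccl12, a monocyte-attracting chemokine, was lower in SPA by 17.8-fold, from 2.17 in SVC to -1.98 in SPA, and was at 1.77 in MA. Its probe lies on chromosome 11 from 81916710 to 81916769. Marco, a scavenger receptor, had 2.47 in SVC and -0.07 in SPA. Cbr2, a carbonyl reductase, and Vsig4, a complement receptor, had log2 ratios of -2.55 and -2.39. Mrc1, the mannose receptor, was at -0.46 and Folr2 at 0.43, while the lectin receptor Clec10a was at 2.33, just over 5-fold higher. Lyve1 and Timd4, 2 further markers of such cells, were not well above background in SVC or SPA. Aif1 and Fcgr1 of the general markers had log2 ratios of -2.04 and -1.63.

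Other myeloid genes were called lower. Arg1, or arginase, which macrophages share with liver, was 7.40-fold lower, and Fpr1, the receptor for formylated peptides, 7.20-fold. The paired receptors Pilrb1 and Pilrb2, near-identical neighbours on chromosome 5 whose transcripts may bind the same probe, had log2 ratios of -2.66 and -2.80. S100a9, a calcium-binding protein of myeloid cells that pairs with S100a8, was at least 6.52-fold lower in SPA. It was dim in SVC, at -2.43, and its log2 ratio with normexp was -1.07. Its partner S100a8, named after its value was seen, was 5.94-fold higher, with 0.05 in SVC and 2.62 in SPA. Both are read at 1 probe, on chromosome 3 from 90496573 to 90496632 and from 90473778 to 90473837.

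PU.1 is a transcription factor of macrophages. The start regions of 3 of the macrophage genes that were low together are shown. They were picked because each holds the core site of PU.1, so the match is part of the choice. C1qa, which was low with them, is not among the genes for which a match before the start was found. The PU.1 core GAGGAA was searched on both strands, and a match is in capitals, so that a match on the other strand reads TTCCTC. Each sequence holds the 250 bases before the start of the transcript, 5′ to 3′ along the gene, from RefSeq in the GRCm38.p6 build. C1qb is at chr4:136886201-136886450 and C1qc at chr4:136892915-136893164, both on the minus strand, and Ccl12 is at chr11:82101595-82101844 on the plus strand.
C1qb: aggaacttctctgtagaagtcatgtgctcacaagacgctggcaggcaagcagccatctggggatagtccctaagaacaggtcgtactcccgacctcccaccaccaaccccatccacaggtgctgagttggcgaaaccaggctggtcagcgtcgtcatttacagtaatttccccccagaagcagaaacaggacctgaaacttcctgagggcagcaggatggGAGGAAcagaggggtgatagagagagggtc
C1qc: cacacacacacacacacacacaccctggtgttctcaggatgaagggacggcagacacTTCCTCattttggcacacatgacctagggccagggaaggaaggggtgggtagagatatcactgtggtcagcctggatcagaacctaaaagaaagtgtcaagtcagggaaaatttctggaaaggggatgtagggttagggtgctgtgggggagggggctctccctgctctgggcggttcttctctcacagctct
Ccl12: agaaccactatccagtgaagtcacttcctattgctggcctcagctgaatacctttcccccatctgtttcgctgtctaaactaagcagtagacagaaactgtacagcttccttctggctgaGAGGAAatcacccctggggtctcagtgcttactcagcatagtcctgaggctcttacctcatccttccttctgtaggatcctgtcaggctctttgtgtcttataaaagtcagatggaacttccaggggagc

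The match began 30 bases before the start in C1qb, 193 before in C1qc and 130 before in Ccl12. Over 250 bases before and 50 after the start, the core was found in 12 of the 17 resident macrophage genes with a sequence (70.6%), and in 31.3% of all 27025 genes. It was also found in 61.9% of the general macrophage markers and in 70% of the lymphocyte markers. Among genes called at least 5-fold lower the share was 41.7%, and among those called at least 5-fold higher 40.4%. The core thus did not separate lower from higher genes. Ccl8, which was higher in SPA, holds the core too. No match in these sequences overlapped another motif searched here. A match describes the letters and does not show binding.

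Chemokines, the secreted proteins that guide leukocytes, were also past 2-fold more often on the lower side. Of 23 with a fold, 9 were at least 2-fold lower and 1 at least 2-fold higher, with a median log2 ratio of -0.84, and with normexp 7 were at least 2-fold lower. Ccl7 and Ccl2, ligands of the receptor CCR2, had log2 ratios of -1.72 and -1.12, with levels for Ccl2 of 7.36 in SVC and 6.24 in SPA. Cxcl14, Cxcl5 and Cxcl12 had log2 ratios of -1.83, -1.48 and -1.19. Cxcl10, an interferon-induced chemokine, was at -1.60. Ccl8 was the exception at 1.82, although its probe lies on chromosome 11 close to those of Ccl12 and Ccl7. Il6, from the list of inflammatory genes, was at -1.82, the one member of 15 that was at least 2-fold lower. Of 21 interferon-stimulated genes and 8 MHC class II genes with a fold, 0 were past 2-fold in either direction.

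**Figure D2:**
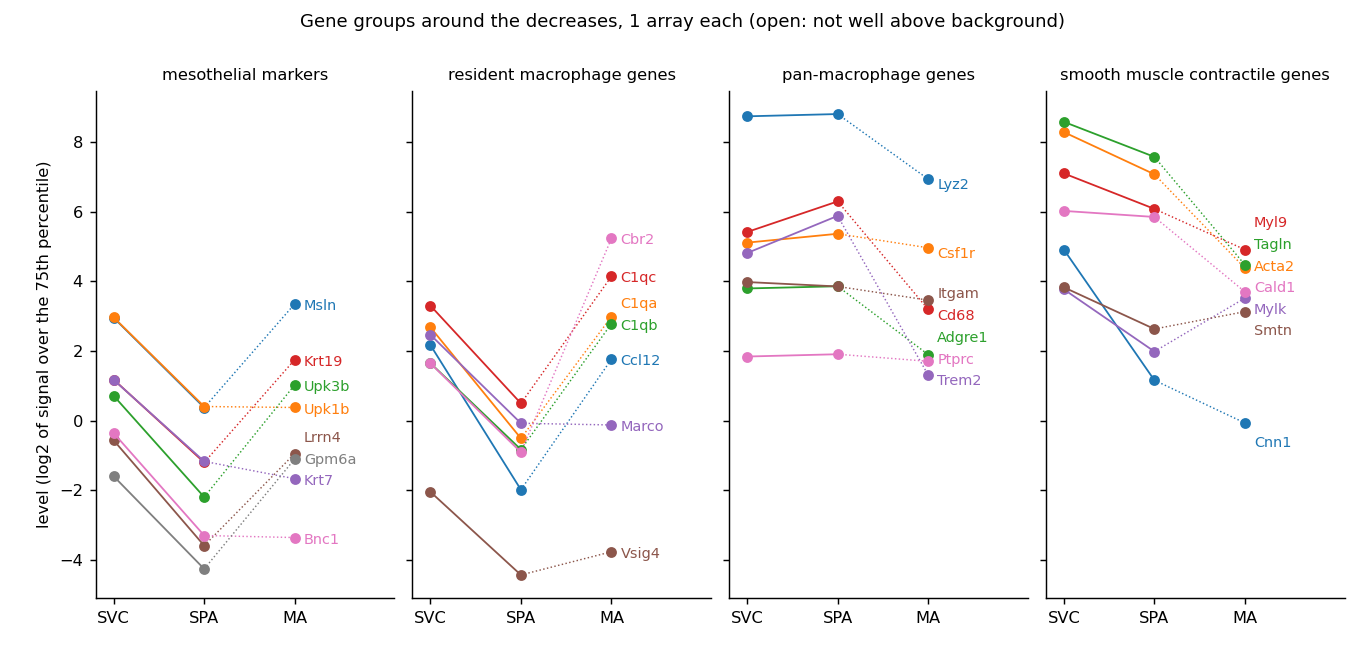
Level (log2 of signal over the array's 75th percentile) of named genes on the SVC, SPA and MA arrays, 1 array each, with lines joining the values of one gene. Open circles would mark a gene not well above background, and none is open. The mesothelial and resident macrophage genes drawn were all called at least 5-fold lower in SPA than in SVC, as Msln was (2.96 and 0.38). List members that go the other way, such as Cldn15 and Clec10a, are not drawn. Upk1b, Krt7 and Bnc1 are no higher in MA than in SPA. General macrophage genes such as Lyz2 (8.74 and 8.81) stay level or are higher.

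Genes of the contractile apparatus were lower in SPA. All 13 smooth muscle contractile genes with a fold had a negative log2 ratio, 8 of them at least 2-fold, with a median of -1.01. Their summed signal was 449068 in SVC and 224116 in SPA. Cnn1, or calponin, an actin-binding protein of contractile cells, had a level of 4.92 in SVC, 1.16 in SPA and -0.06 in MA. It was 13.5-fold lower in SPA, and its 2 probes had log2 ratios of -3.75 and -3.67. The first of these lies on chromosome 9 from 21913058 to 21913117. Acta2, or smooth muscle actin, had a log2 ratio of -1.21 at its brightest probe and between -1.69 and -0.88 at its other 3 probes. Tagln had levels of 8.58 in SVC and 7.58 in SPA, and Mylk, the kinase of the myosin light chain, had a log2 ratio of -1.79. Myh11 and Cald1 were at -0.28 and -0.17. Among 9 pericyte markers, 0 were at least 2-fold lower and 4 at least 2-fold higher, with Rgs5 at 1.58 and Notch3 at 1.15, and with normexp 1 was at least 2-fold higher.

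Myl9, the regulatory myosin light chain, had a log2 ratio of -1.02 and is shown because it was the 1 gene of this list, of 11 with a start region, that held the CArG box, the site of serum response factor. The box was searched on both strands and is in capitals, and it occurs in 1.81% of all genes. The 250 bases before the start are at chr2:156775214-156775463 on the plus strand of GRCm38.p6, from RefSeq.
Myl9: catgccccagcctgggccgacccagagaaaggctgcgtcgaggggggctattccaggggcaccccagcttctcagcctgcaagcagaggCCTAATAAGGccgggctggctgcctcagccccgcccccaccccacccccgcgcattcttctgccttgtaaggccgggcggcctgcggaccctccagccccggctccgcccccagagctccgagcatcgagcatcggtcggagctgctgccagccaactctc

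Targets of YAP and TEAD, a pair that answers to cell spreading and stiffness, were listed after their values had been seen. Of 12, 4 were at least 2-fold lower, and 10 were below 0. Ankrd1, an ankyrin repeat protein, was at 2.79 in SVC and 0.36 in SPA, 5.42-fold lower. Ccn2 and Ccn1, matricellular proteins, had log2 ratios of -1.50 and -1.28. Thbs1, which activates latent TGF-beta, was at -1.91, and Inhba and Tgfb3 of the TGF-beta and activin ligands were at -1.16 and -1.04. Of 15 genes of that ligand list 4 were at least 2-fold lower and 0 at least 2-fold higher, while Tgfb1 was at 0.52.

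Collagens went both ways. Of 27 with a fold, 11 were at least 2-fold lower and 2 at least 2-fold higher. The fibrillar collagens Col1a1, Col1a2, Col3a1, Col5a1 and Col5a2 had log2 ratios of -1.63, -1.09, -1.43, -1.34 and -1.66, with levels for Col1a1 of 6.85 in SVC and 5.21 in SPA. Col8a1 and Col8a2, short-chain collagens found in membranes below endothelia, were at -2.37 and -2.19, and Col11a1 at -2.46. The basement membrane collagens differed among themselves, with Col4a1 and Col4a2 at 0.57 and 0.74 and Col18a1 at 1.43, but Col4a6 at -2.15, Col4a5 at -0.40 and Col4a3 at a bound of -0.96. Col5a3 was at 1.18. Col4a1 was brighter in MA, at 5.59, than in both cultures. Further matrix genes named after their values were seen were Has2, which makes hyaluronan, at -2.69, Cthrc1, a secreted collagen triple helix protein, at -2.42, and Cemip, which breaks hyaluronan down and was 7.44-fold lower.

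Secreted regulators of Wnt signals were past 2-fold more often on the lower side. Of 20 Wnt ligands and antagonists with a fold, 9 were at least 2-fold lower and 1 at least 2-fold higher, with a median log2 ratio of -0.91, and with the normexp correction 5 were at least 2-fold lower. Frzb, a decoy receptor for Wnt proteins, was well above background in SVC alone and at least 14.3-fold lower in SPA. With normexp its log2 ratio was -1.72. Sfrp1, a decoy of the same family, was at -0.29 in SVC and -2.94 in SPA, and Dkk3 had a log2 ratio of -2.07. Of the ligands, Wnt7a had log2 ratios of -2.18 and -1.91 at its 2 probes, and Wnt7b and Wnt4 of -1.28 and -1.22. Sfrp5, an antagonist made by adipocytes, was the member at least 2-fold higher, at 1.06, with 3.71 in MA.

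The BMP ligands and antagonists went both ways. Of 25 with a fold, 5 were at least 2-fold lower and 3 at least 2-fold higher, and their median was 0.19. Gdf6 was 9.94-fold lower, with -0.37 in SVC and -3.68 in SPA, and its probe lies on chromosome 4 from 9789396 to 9789455. Grem1, a BMP antagonist, and Bmp4, a ligand that commits progenitors to the adipose lineage, had log2 ratios of -2.29 and -2.16, and the other probe of Bmp4 gave -2.20. Fst, which binds activin, was at -1.71. Higher in SPA were Gdf15, a stress-induced member, at 1.29, and Bmp6 at 1.08, and Chrdl1, an antagonist, by a bound of 1.53. With normexp, 1 gene of the list was at least 2-fold higher.

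Of 19 genes of adipose progenitors and fibroblasts, 5 were at least 2-fold lower and 0 at least 2-fold higher. Dlk1, a progenitor protein that restrains adipogenesis, passed 5-fold at its brighter probe, while its second probe gave -1.13 on the log2 scale. Tcf21, a transcription factor of visceral progenitors, had -0.60 in SVC and -2.62 in SPA. Dpp4 was at -1.56 at its brightest probe, but its other 2 probes lay between -0.78 and 0.34. Pdgfra and Cd34 were at -0.47 and -0.71, Ly6a at 0.47, Ly6c1 at 0.49 and Cd9 at 0.86. By real-time PCR the paper found Ly6c1 and Cd9 lower in SPA than in SVC, the other direction from this single array pair. The list as a whole had a median of -0.47.

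Genes of the cell cycle were lower by small amounts, more so those of G2 and mitosis than those of G1 and S. Of 36, 34 had a negative log2 ratio, 4 were at least 2-fold lower, and the median was -0.75. The 24 genes of G2 and mitosis were all below 0, with a median of -0.83 and a range from -1.41 to -0.38. Cenpa, the centromere histone, was at 1.84 in SVC and 0.44 in SPA, and Cdc20, which starts anaphase, at 4.61 and 3.35. Mki67, the proliferation marker, had a log2 ratio of -0.75. The 12 genes of G1 and S had a median of -0.21, with Pcna, the clamp of replication, at 0.29. In MA the levels of Cenpa and Cdc20 were -1.27 and 0.01, below both cultures.

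Several lower genes stood outside these lists and were named for the size of their ratio. Vat1l, a protein of the quinone oxidoreductase family, was 15.4-fold lower, with 0.93 in SVC and -3.02 in SPA, at a probe on chromosome 8 from 116897771 to 116897830. Mogat2, an acyltransferase that makes diacylglycerol, was 8.64-fold lower in SPA and had 1.35 in SVC and 1.90 in MA. Slc1a6, a glutamate transporter, had 2.34 in SVC and -0.77 in SPA. Tmem108 and Stk26, a transmembrane protein and a kinase, were 8.54-fold and 7.93-fold lower, and their other probes gave ratios as low or lower. Npnt, a basement membrane protein, and Akap5, a kinase anchor, were lower by at least 9.56-fold and 7.93-fold, but the second probe of Akap5 gave a bound of -1.32 on the log2 scale. Gabra4, a GABA receptor subunit, was 9.80-fold lower at one probe and at 0.16 at the other, so the call rests on 1 of 2 probes, and Zbtb8b had -2.97 and -0.78 at its 2 probes. Of the genes named after their values were seen, Igfbp2, which binds insulin-like growth factors, Tnfrsf11b, or osteoprotegerin, Sema3a, an axon guidance protein, and Bdnf, a neurotrophin, had log2 ratios of -2.74, -2.57, -2.37 and -2.41.

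The 80 lower genes were next read across probes and on the MA array. Of the 80, 22 had other probes with a fold, and in 19 of these all probes had the same sign. The exceptions were 5031434C07Rik, Gabra4 and Lrp2. In 17 of the 22 the other probes were all at least 2-fold lower. In MA, 40 of the 80 genes were at least 5-fold below SVC, 3 were at least 5-fold above it and 37 lay within 5-fold of it. The 80 were called against the same SVC value, and the matching shares over all genes are not given here. These counts are therefore only descriptive. The local background was marked as outlying on either array for 3 of the 80 lower and 10 of the 73 higher genes.

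**Figure D3:**
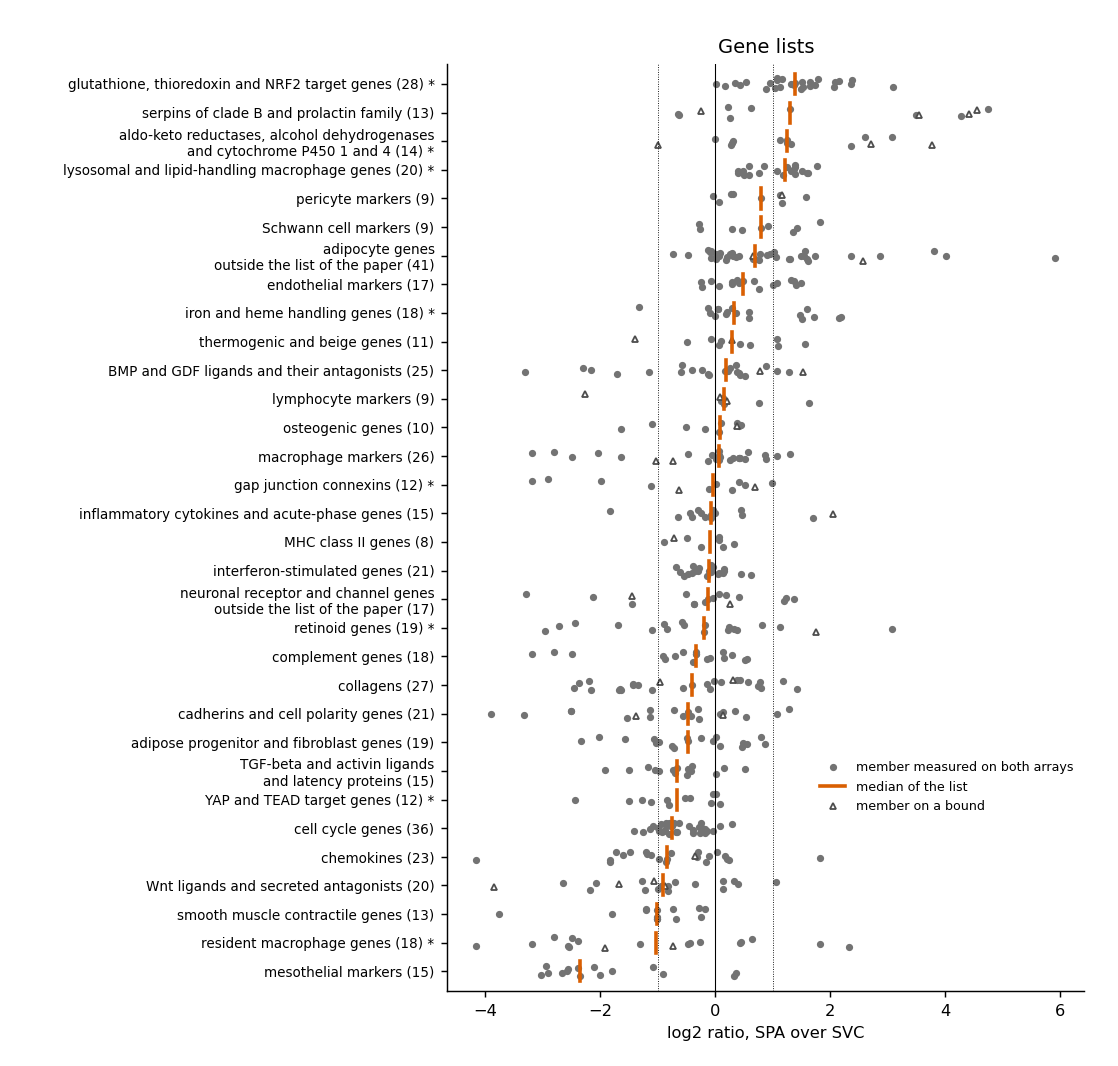
Log2 ratio of SPA over SVC for each member of each gene list drawn, 1 array each. Filled circles were measured on both arrays, open triangles are bounds, orange bars are list medians, the number of members with a fold is in parentheses, and an asterisk marks lists drawn up after values were seen. The other lists were chosen with earlier results of these data known. Dotted lines mark 2-fold. Mesothelial markers lie furthest to the left, with a median of -2.34, and of the lists drawn, which leave out the paper's own list, glutathione and NRF2 genes lie furthest to the right, at 1.39.

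In the other direction, part of the adipocyte genes outside that list were higher in SPA, some of which, such as Cidec and Pparg, the paper names elsewhere. Of 41, 16 were at least 2-fold higher, 6 at least 5-fold higher and 0 at least 2-fold lower, with a median log2 ratio of 0.69. Cidec, which fuses lipid droplets, had levels of -3.20 in SVC, 2.71 in SPA and 9.51 in MA and was 60.3-fold higher in SPA. Gpd1, which makes glycerol phosphate for triglycerides, was 16.0-fold higher, and Trarg1, a regulator of glucose transporter traffic, 13.9-fold. G0s2, which inhibits the lipase ATGL, and Slc2a4, the insulin-sensitive glucose transporter, were 7.26-fold and 5.11-fold higher, and Pnpla3 at least 5.91-fold, although its second probe gave a log2 ratio of 0.38. Pparg, the master regulator, Cd36, a fatty acid transporter, and Pnpla2, which is ATGL, had log2 ratios of 1.54, 1.61 and 1.73.

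Not all adipocyte genes followed. The enzymes of fatty acid synthesis Fasn, Acaca and Acly had log2 ratios of -0.10, 0.02 and 0.02, with levels for Fasn of 4.51 in SVC and 4.42 in SPA. Elovl6 and Irs1, an elongase and the insulin receptor substrate, were at -0.48 and -0.73. Of 11 thermogenic and beige genes with a fold, 3 were at least 2-fold higher, Dio2, Ppara and Cox7a1 at 1.56, 1.09 and 1.08, with 1 such gene under normexp. Tbx1, a transcription factor used as a beige marker, was at least 2.62-fold lower, from a dim level of -3.75 in SVC. With normexp 0 members of the list were at least 2-fold lower. Tnfrsf9, or Cd137, another beige marker, was at 0.42. By real-time PCR the paper found both Cd137 and Tbx1 mainly in SPA, so for Tbx1 this single array pair goes the other way. Ucp1 was not well above background in SVC or SPA. The other lipid and secreted genes named on a bound, Cyp4b1, Ffar2, Itih5, Timp4 and Serpina1a, were at least 7.72-fold to 13.6-fold higher in SPA, and each of them was brighter in MA than in SPA. For Serpina1a, a near-identical copy of Serpina1c beside it, another probe, measured on both arrays, gave a log2 ratio of 0.90, and for Timp4 such a probe gave 1.95, both below the bounds.

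Genes of glutathione, thioredoxin and the NRF2 response, which protect cells from oxidants and electrophiles, were listed after their values had been seen. Of 28, all had a positive log2 ratio, 21 were higher by 2-fold or more, 3 of them by 5-fold or more, and the median was 1.39. Srxn1, or sulfiredoxin, which repairs peroxiredoxins, had 5.09 in SVC, 7.45 in SPA and 3.98 in MA. Slc7a11, the cystine importer, was 5.21-fold higher at its brightest probe, but its other 3 probes ranged from 0.33 to 2.71 on the log2 scale. Gclc and Gclm, the subunits of the enzyme that starts glutathione synthesis, had log2 ratios of 2.07 and 1.74, and Nqo1, a quinone reductase, of 1.78. Hmox1, which opens heme, was at 2.14 and at 2.84 at its other probe. Unlike the adipocyte genes, most of them were lower in MA than in SPA, with Nqo1 at -2.36 and Gclm at 2.33 in MA. The exceptions were Me1, Gstm2, Mgst1 and Cbr1.

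The glutathione transferase Gsta2 was 8.47-fold higher, with 2.27 in SVC and 5.35 in SPA, and was not well above background in MA. Its probe lies on chromosome 9 from 78178856 to 78178915, and 4 other probes called at least 5-fold higher lie within the same stretch from 78116774, one of them named Gm10639. The Gsta genes are close copies, so these probes cannot be assigned to one gene each. Gstm3 and Gstp1 had log2 ratios of 1.51 and 1.07, and Gstm2 of 0.16.

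The start regions of Gclm and Txnrd1 are shown because both genes were higher, with log2 ratios of 1.74 and 1.16, and both hold the core TGACNNNGC of the antioxidant response element, the site of NRF2. The core was searched on both strands and is in capitals, here in its reverse form. The 250 bases before the start, from RefSeq in GRCm38.p6, are at chr3:122245307-122245556 for Gclm and at chr10:82858956-82859205 for Txnrd1, both on the plus strand.
Gclm: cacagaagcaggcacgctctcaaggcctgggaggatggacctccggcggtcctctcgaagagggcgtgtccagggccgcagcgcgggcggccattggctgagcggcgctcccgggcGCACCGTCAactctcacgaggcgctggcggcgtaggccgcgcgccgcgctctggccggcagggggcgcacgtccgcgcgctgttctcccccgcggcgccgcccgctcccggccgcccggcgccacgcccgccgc
Txnrd1: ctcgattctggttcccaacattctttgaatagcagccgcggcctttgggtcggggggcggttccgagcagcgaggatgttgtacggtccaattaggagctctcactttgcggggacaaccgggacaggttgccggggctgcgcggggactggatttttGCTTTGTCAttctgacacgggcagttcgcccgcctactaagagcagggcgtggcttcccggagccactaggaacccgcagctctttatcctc

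The core was found within the same window in 9 of the 23 listed genes with a sequence (39.1%) and in 14.0% of all genes. The list was drawn up around the NRF2 response, so its share does not speak for higher genes at large. Among genes called at least 5-fold higher, the core was found in 4 of 52 with a sequence (7.69%). The letters of the core do not show that NRF2 was bound, and Ugdh, which holds it as well, had a log2 ratio of 0.02.

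Neighbouring families of detoxifying enzymes were higher too, again in a list drawn up after the values had been seen. Of 14 aldo-keto reductases, alcohol dehydrogenases and cytochrome P450 genes with a fold, 9 were at least 2-fold higher and 5 at least 5-fold higher. Akr1c18, which reduces progesterone, had 2.36 in SVC, 4.97 in SPA and -2.31 in MA, and Akr1c14, beside it on chromosome 13, had a log2 ratio of 2.37. Adh7 was 8.45-fold higher, and Cyp1a1, the classical target of the aryl hydrocarbon receptor, was at least 6.51-fold higher, while Cyp1b1 had a level of 4.67 on both arrays. Of the Akr1c genes, near copies of each other, Akr1c19 was the 1 with a negative value, a bound of -0.99.

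Macrophage genes of lysosomes and lipid uptake, listed after their values had been seen, were higher, unlike the resident genes. All 20 had a positive log2 ratio, 12 of them at least 2-fold, and the median was 1.22. Mmp12, the macrophage elastase, had 4.59 in SVC, 5.98 in SPA and -3.32 in MA. Gpnmb, a glycoprotein of lipid-laden macrophages, and Trem2, a lipid receptor, had log2 ratios of 1.25 and 1.07. Lipa, the acid lipase, and Pla2g7 were at 1.52 and 1.76. Cd36 and Lpl of this list are also adipocyte genes, and Trem2 is also among the general markers. Of 18 genes of iron and heme, 6 were at least 2-fold higher, among them Slc40a1, the iron exporter, at 2.19, Heph at 1.72 and Slc11a1 at 1.59, and 1 at least 2-fold lower, Cybrd1 at -1.32, while the ferritin genes Fth1 and Ftl1 were at 0.19 and 0.06. Haemoglobin genes do not mark these arrays, since Hba-a1 was at -2.63 in SVC and -2.52 in SPA, against 8.38 in MA.

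**Figure D4:**
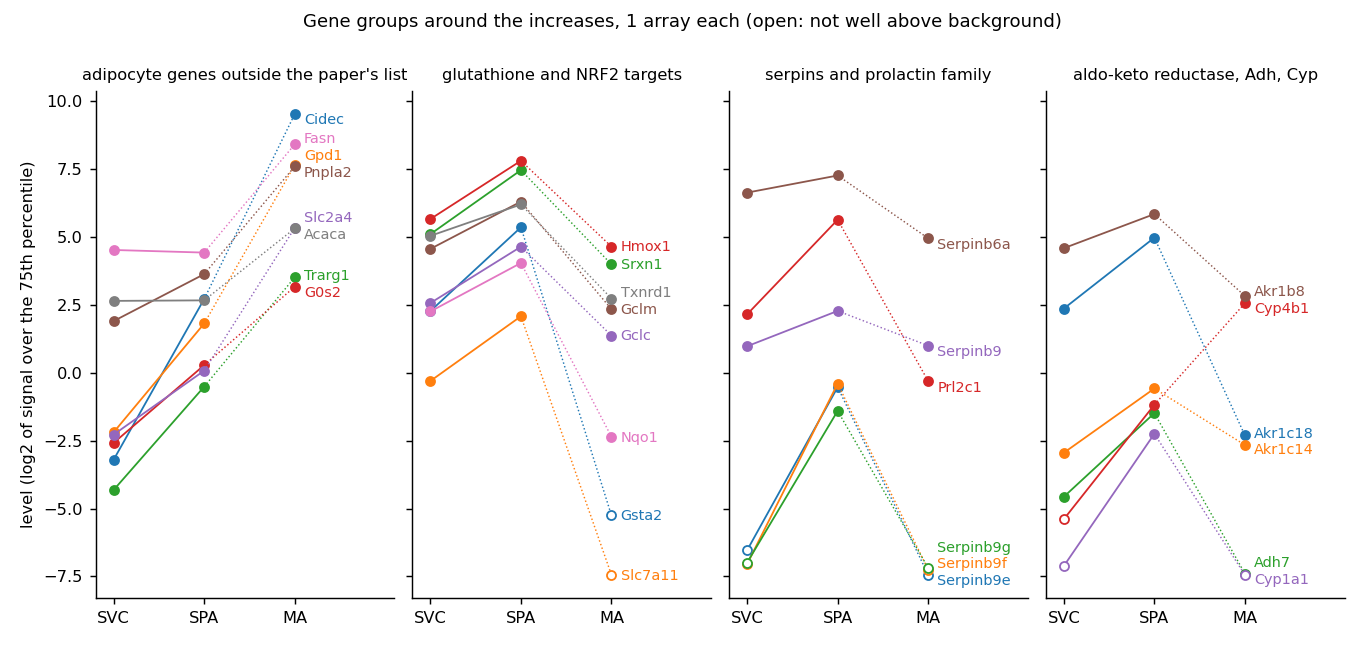
Level (log2 of signal over the array's 75th percentile) of named genes on the SVC, SPA and MA arrays, 1 array each, with lines joining the values of one gene and open circles for a gene not well above background. Adipocyte genes such as Cidec run from -3.20 to 2.71 and 9.51, whereas NRF2 targets such as Srxn1 (5.09, 7.45 and 3.98) peak in SPA. Of the serpins of clade B, the close copies Serpinb9e, Serpinb9f and Serpinb9g peak in SPA.

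The serpins of clade B, protease inhibitors of the cell interior, held the largest bounds outside the paper's list. Of 13 clade B serpins and prolactin family genes with a fold, 7 were higher by at least 2-fold and 6 of these by at least 5-fold. These counts are not all outside the paper's list, since they include its gene Prl2c3, at a log2 ratio of 4.73. Serpinb9f, Serpinb9e and Serpinb9g were not well above background in SVC or MA and were at least 23.4-fold, 21.4-fold and 11.7-fold higher in SPA. Their probes lie with that of Serpinb1b on chromosome 13 between 33185999 and 33587728. The 3 genes are close copies, and their signals cannot be assigned with certainty. The local background of the Serpinb9e spot was marked as outlying on both arrays. Serpinb9, which protects cells from granzyme B, was at 1.30, while Serpinb6b and Serpinb2 were at -0.64 and -0.62. Prl2c1, of the prolactin family on the same chromosome, was 11.2-fold higher, with 2.14 in SVC and 5.63 in SPA.

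Some markers of vascular and nerve cells were higher in SPA. Of 17 endothelial markers, 6 were at least 2-fold higher and 0 lower, with a median of 0.49. With the normexp correction 2 were at least 2-fold higher. Vwf, the clotting factor carrier, was at -0.08 in SVC and 1.42 in SPA, whereas Pecam1 and Kdr had log2 ratios of 0.30 and -0.22. Of 9 Schwann cell markers 3 were at least 2-fold higher, among them Ngfr at 1.83 and Sox10 at 1.35, and 1 was under normexp. Mbp, of myelin, was at -0.27. The part of these cell types in the other results was not tested. Of 7 markers of epididymal epithelium, 0 were well above background in SVC or SPA.

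Further higher genes were named for the size of their ratio or, from Fetub on, after their values were seen. Cst6, a cystatin, was 7.92-fold higher and Map7d2, a microtubule protein, 9.05-fold, with log2 ratios of 3.18 and 3.31 at its 2 probes and an outlying local background at the first. H2-M1, a nonclassical MHC gene, and Treml4, a myeloid receptor, were at least 18.4-fold and 9.80-fold higher. Fetub, a protease inhibitor, had -0.40 in SVC, 2.42 in SPA and no level well above background in MA. Lrg1, a secreted glycoprotein, had a log2 ratio of 2.41 and lies next to Plin4, a gene of the paper's list, on chromosome 17. Ndufa4l2, a mitochondrial protein, and Opn3, an opsin, were at 2.38 and 2.64, and Tpsab1, a mast cell tryptase, at 2.52. Of the 73 higher genes, 39 were at least 5-fold above SVC in MA as well, 13 were at least 5-fold below it, 12 lay within 5-fold and 9 had no fold. These counts too share the SVC value with the calls, and the shares over all genes are not given here. Of the 21 higher genes with other probes that had a fold, all had the same sign at these probes. In 14 of the 21 the other probes were all at least 2-fold higher.

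Of 18 complement genes 3 were at least 2-fold lower, which were the C1q chains, and 0 at least 2-fold higher. Of 10 osteogenic genes 2 were at least 2-fold lower, and their median log2 ratio was 0.09. Of 17 genes of neuronal receptors and channels outside the paper's list, 4 were at least 2-fold lower, such as Gabrb1 at -2.13, and 3 at least 2-fold higher, such as Nefl, a neurofilament, at 1.37. Of 15 inflammatory and acute-phase genes 2 were at least 2-fold higher, Saa2 at 1.70 and Orm1 by a bound of 2.05. Of 9 lymphocyte markers 1 was at least 2-fold higher, the interleukin receptor Il7r at 1.63, and 1 lower, Cd79b of B cells, on a bound of -2.26.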

How the data were processed

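Total RNA (50 ng) from each sample was labelled with Cy3 and hybridised to a 1-colour Agilent mouse array of 60-base probes, with 1 array each for SVC, SPA and MA, all on 1 slide. The submitters' processing notes name Agilent Feature Extraction 10.7.3.1. The deposited scanner files hold processed signal intensities, background-corrected by that software and not normalized between arrays. The deposited value table, made by the authors in GeneSpring GX, holds normalized ratios and served as an alternative. From the intensities, log2 of the processed signal minus the log2 of each array's 75th percentile was computed over probes that were not controls, and repeated spots of a probe were averaged. For a gene with several probes, the probe brightest on average across the 3 arrays stood for it. Where the dimmer array was not well above background, the fold was computed against the higher of that probe's signal and the lowest signal well above background on the array. Probe positions are those of the files (mm9), and 32994 of 56604 probes were named through RefSeq accessions. Promoters are from RefSeq (GRCm38.p6).

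Genes were named by rule, as the 25 lower and 15 higher measured on both arrays and the 10 on a bound in each direction with the largest ratios, with members of the gene lists and with others said to be chosen after their values were seen. Probes without a symbol were not named, and a few genes that the rule names are not reported here. The comparison, the gene lists and the named genes were chosen with earlier results of these data known. No p-value was computed, since each condition has 1 array. The calculation was tested on simulated data. Alternatives were normexp, quantile normalization, another percentile, no filter on dim probes, the deposited ratios, probes above background on both arrays, other ways to pick a probe, outlying local background left out, and a 2-fold limit. Python 3.11.15, numpy 2.4.6, pandas 2.3.3, scipy 1.17.1, matplotlib 3.10.9, R 4.3.3 and limma 3.58.1 were used.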

Additional observations from a re-analysis of the deposited data

How the results depend on the processing

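At least 5-fold lower in SPA were 80 genes and at least 5-fold higher 73. With the normexp background correction these counts were 15 and 30, with no filter on dim probes 159 and 287, and with a limit of 2-fold in place of 5-fold 740 and 888. Under the other alternatives the counts stayed within 1.5 times, from 66 to 89 for lower and from 51 to 81 for higher genes. All 80 lower and all 73 higher genes kept their direction in each of the 10 other settings that gave them a value, and with normexp 76 and 70 of them were at least 2-fold. The number of arrays limits the precision, and the ratios of dim probes differ between background corrections. No paired analysis was possible because each group holds 1 array, and for the same reason no replicate could be left out.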
